A study of Mus musculus with 6 samples.

Results

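The genes described here make the enzymes that cut and crosslink the extracellular matrix, and the inhibitors that hold those enzymes in check. They were taken from the expression arrays by gene symbol: matrix metalloproteinases (Mmp), tissue inhibitors of metalloproteinases (Timp), the ADAM and ADAMTS proteases, and the lysyl oxidases Lox and Loxl1 to Loxl4. The symbols gave 90 of the 22626 probe sets tested, which read 58 of 12393 genes. A probe set is a group of short oligonucleotides on an Affymetrix array that in most cases reads transcripts of 1 gene. Of the 58 genes, 21 had more than 1 probe set.

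Total RNA came from skeletal muscle of wild-type C57BL/6 mice, labelled as 1 month old, although the paper calls them adult. In 3 mice the muscle received an adeno-associated virus (AAV) expressing the murine TFEB (Tcfeb) cDNA, and in 3 other mice an AAV expressing green fluorescent protein (GFP control). Both groups were therefore injected and carried a vector. The arrays are labelled as biological replicates, which was read as 1 mouse per array. The cDNAs stood behind the CMV promoter, which is not specific to muscle fibres, and the vectors were injected into the muscle itself. Muscle without vector was not analysed here.

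Muscle fibres lie in a sheath of basement membrane and collagen that is built mostly by fibroblasts and that is cut and rebuilt when muscle grows, regenerates or is inflamed. MMPs are zinc enzymes made as inactive precursors. Most are secreted, and a few, such as Mmp14, are anchored in the cell membrane. ADAMs are membrane proteins that shed the outer parts of other membrane proteins, and several of them have lost the protease site or are used in the germ line. ADAMTS enzymes are secreted, and some of them cleave the proteoglycans aggrecan and versican. TIMPs block these enzymes, with Timp3 the broadest of them. Lysyl oxidases oxidise lysines of collagen and elastin, which starts the crosslinking of the fibres.

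Values are given as log2 probe set values in the order of replicates 1, 2 and 3. A probe set was called higher or lower in the TFEB group at an adjusted p under 0.05 with at least a 1.5-fold difference. The adjusted p-values of single probe sets come from limma (n = 3 arrays per group) and are corrected over all probe sets, and ± beside a log2 fold change is its standard error (SE). A log2 fold change is TFEB minus GFP control.

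Every protease and crosslinker that was called was higher in TFEB muscle, whereas the inhibitors were called in both directions, Timp1 higher and Timp3 and Timp4 lower. Of the 90 probe sets, 18 (20.0%) were called higher and 3 (3.33%) lower, while 69 were not called. Over all probe sets tested, 7.51% were called higher and 6.11% lower (13.6% in either direction). By adjusted p alone, 28 members were higher and 7 lower, beside 14.5% and 18.1% of all probe sets. In the brighter 50% of probe sets, which held 31 of the members, 10 were called higher and 3 lower, beside 10.6% and 9.15%. There the share of members called lower was close to that of all probe sets, while the share called higher was above it. By gene, 13 of the 58 had at least 1 probe set called higher, 2 had at least 1 called lower, 43 had none called, and 0 were called both ways. With each gene read by its brightest probe set, 12 of 58 member genes (20.7%) were higher and 0 lower, beside 8.62% and 4.9% of all genes. The median log2 fold change of the members was 0.02, beside -0.06 for all probe sets. In 32 member probe sets (35.6%) every TFEB array lay above every GFP control array and in 16 (17.8%) below, whereas over all probe sets the shares were 20.1% and 29.7%.

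**Figure D1:**
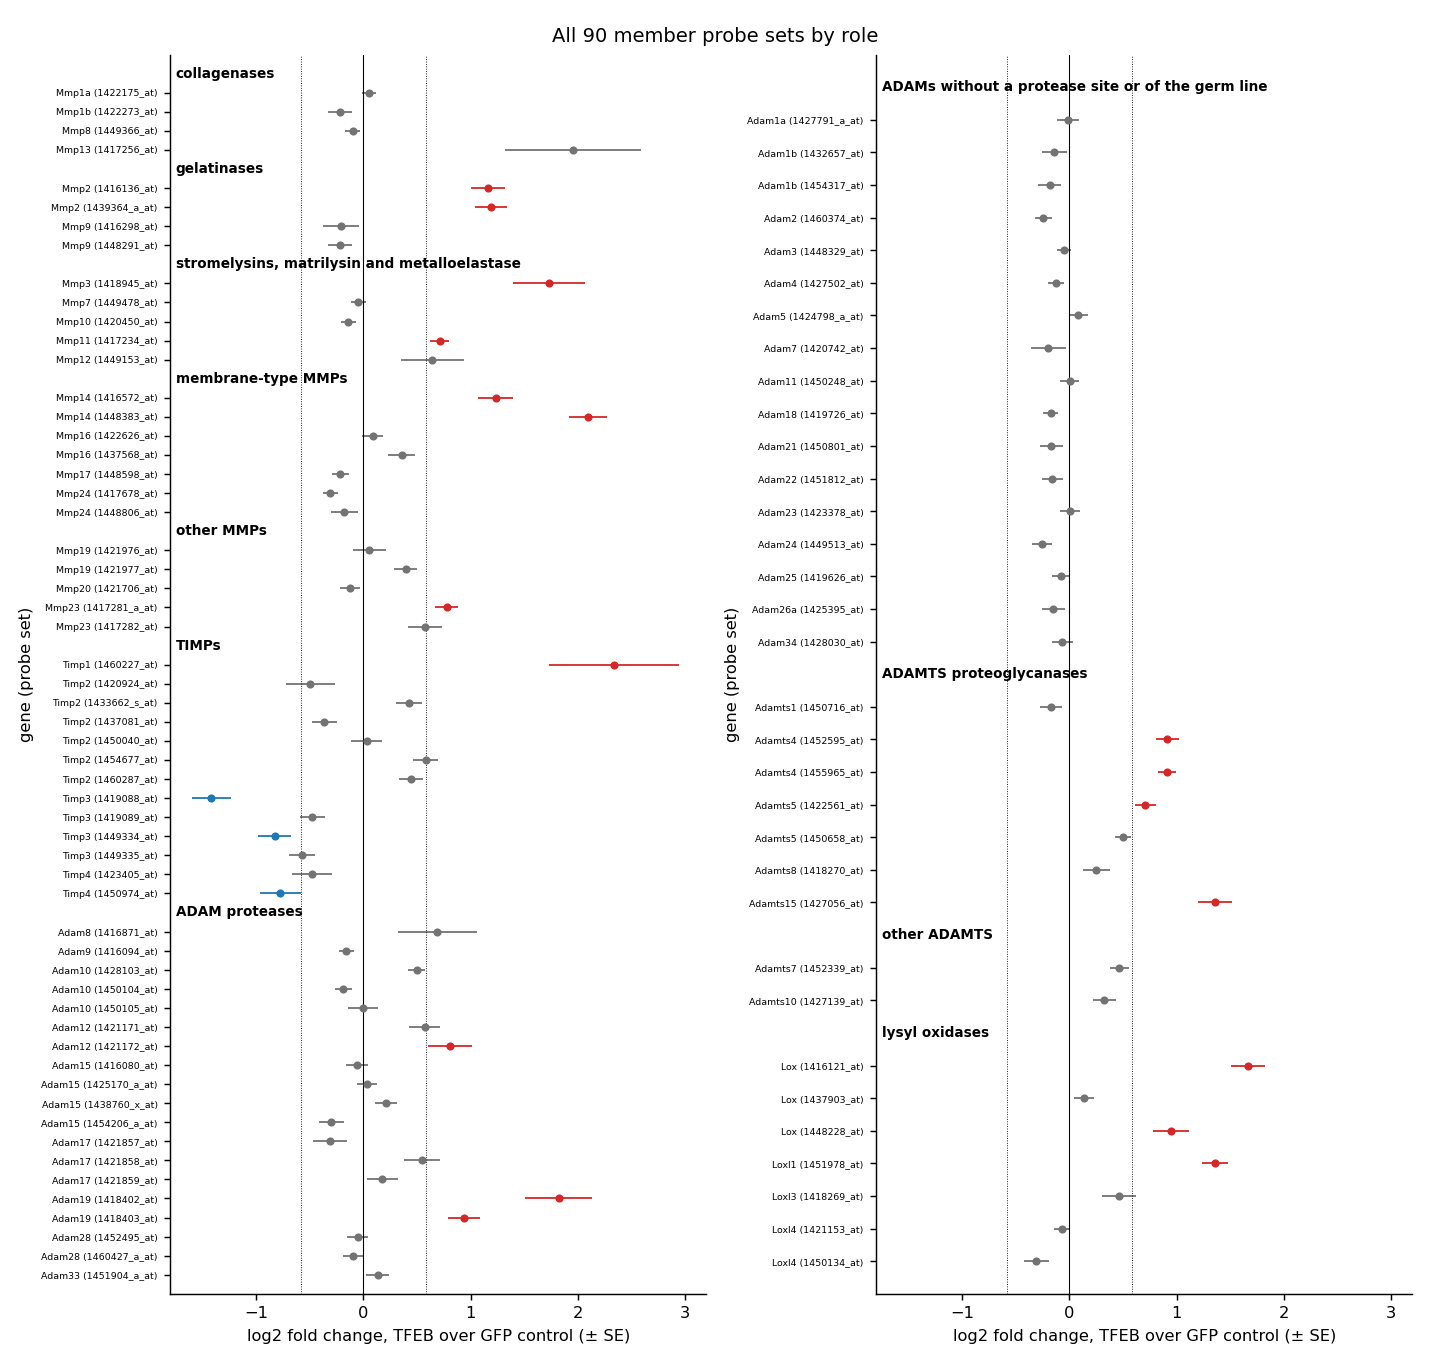
Log2 fold change (TFEB minus GFP control, x axis) with its SE for each of the 90 probe sets, arranged by role (y axis). Red points were called higher, blue lower and grey not called, and the dotted lines mark a 1.5-fold difference. The 17 probe sets of ADAMs without a protease site or of the germ line lie between -0.26 and 0.09, while the TIMPs run from -1.42 to 2.34.

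One GFP control array stood apart. GFP control replicate 2 differed over 2-fold from replicates 1 and 3 at 844 and 725 probe sets, while replicates 1 and 3 differed at 87, and pairs of TFEB arrays at 45 to 101. Among the members, 3 probe sets of this array lay over 2-fold from the mean of the other control arrays: Timp1 by 2.16 log2 units, Adam8 by 1.25 and Adam19 (1418402_at) by 1.17. Its macrophage marker genes had a mean log2 value of 8.81, against 6.87 and 6.82 in replicates 1 and 3, and its T cell markers 6.60 against 5.27 and 5.35. Without this array 21 member probe sets were called higher and 6 lower, beside 10.7% and 7.93% of all probe sets. A 3' to 5' signal difference of the beta-actin control probe sets, which rises when RNA is shortened, was 0.037 to 0.077 in GFP control and 0.218 to 0.341 in TFEB. For the Gapdh control probe sets it was -0.071 to -0.061 in GFP control and -0.038 to 0.053 in TFEB, a smaller gap. The part of RNA quality in the results was not tested. The only Tfeb probe set was lower in the TFEB group (-0.77 ± 0.097, adjusted p = 0.0024), so it does not check the delivery of the gene.

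**Figure D2:**
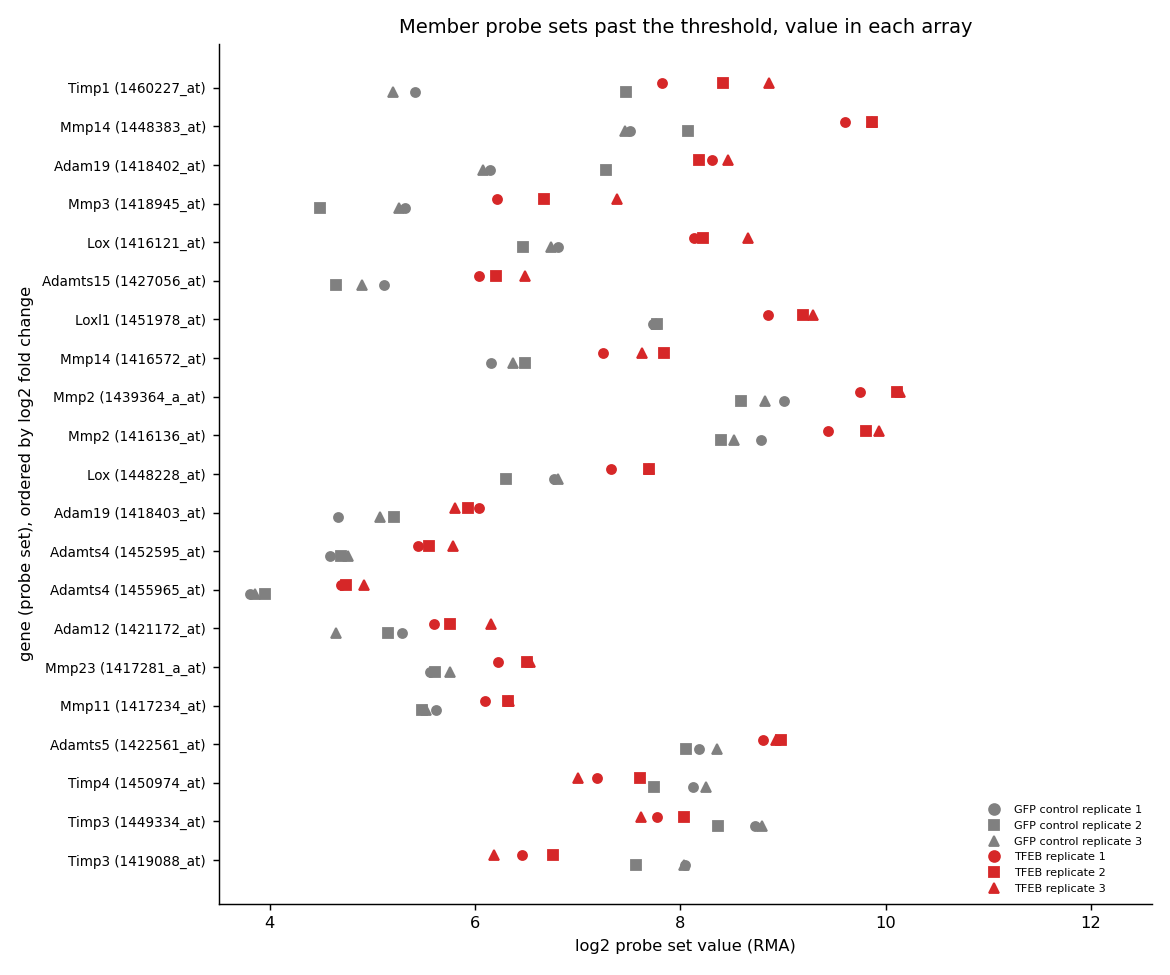
Log2 value in each array (x axis) of the 21 member probe sets that were called (y axis, ordered by log2 fold change). Grey symbols are the GFP control arrays, red symbols the TFEB arrays, and the shape gives the replicate. In all 21 the groups did not overlap, and the closest approach is in Timp4, at 7.61 in TFEB replicate 2 and 7.74 in GFP control replicate 2. The probe sets were chosen by p and fold on these same arrays, which favours groups that lie apart.

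The gelatinase Mmp2 and its membrane-bound activator Mmp14 both rose, and every probe set of either gene was called. Mmp2 cleaves denatured collagen and the type IV collagen of basement membranes. Its probe set 1439364_a_at read 9.01, 8.59 and 8.82 in GFP control and 9.76, 10.11 and 10.14 in TFEB (1.19 ± 0.15, 2.28-fold, adjusted p = 0.0023). The other, 1416136_at, read 8.78, 8.39 and 8.53 against 9.44, 9.81 and 9.94 (1.16 ± 0.16, adjusted p = 0.0031). The 2 probe sets gave nearly the same difference, and their TFEB arrays were all above the control arrays. Mmp14, also known as MT1-MMP, cuts collagen at the cell surface and removes the propeptide of Mmp2 in a complex with Timp2. Its probe set 1448383_at read 7.51, 8.07 and 7.46 in GFP control and 9.60, 9.87 and 9.87 in TFEB, a 4.28-fold difference (2.10 ± 0.18, adjusted p = 0.00085). The other, 1416572_at, read 6.15, 6.49 and 6.37 against 7.24, 7.84 and 7.62 (1.23 ± 0.17, 2.35-fold, adjusted p = 0.0030). The size of the Mmp14 difference thus depended on the probe set, while its direction did not. The second gelatinase, Mmp9, was not called on either probe set (-0.21 ± 0.17 and -0.22 ± 0.11), and its arrays overlapped.

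Among the other membrane-type enzymes only Mmp24 passed the limit on p, on 1 of its 2 probe sets and without reaching 1.5-fold. It read 5.80, 5.82 and 5.82 against 5.56, 5.53 and 5.42 on 1417678_at (-0.31 ± 0.069, adjusted p = 0.017). Its brighter probe set, 1448806_at, gave -0.18 ± 0.13 (adjusted p = 0.31), with overlapping groups. Mmp16 and Mmp17 were not called.

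Of the stromelysins, matrilysin and metalloelastase, Mmp3 and Mmp11 rose and the other 3 genes were not called. Mmp3 (stromelysin 1) degrades proteoglycans, laminin and fibronectin and activates other MMPs. It read 5.32, 4.49 and 5.26 in GFP control and 6.21, 6.67 and 7.38 in TFEB (1.73 ± 0.34, 3.32-fold, adjusted p = 0.010). Its lowest array was GFP control replicate 2, and without that array the difference was 1.47 (adjusted p = 0.0083). Mmp11 (stromelysin 3) is unusual among the secreted MMPs in being activated inside the cell by furin. It read 5.62, 5.48 and 5.52 against 6.10, 6.32 and 6.33 (0.71 ± 0.090, 1.64-fold, adjusted p = 0.0025). Mmp12, the elastase of macrophages, read 3.88, 4.15 and 4.77 against 4.46, 5.39 and 4.88, so that its groups overlapped (0.64 ± 0.30, adjusted p = 0.14).

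The collagenases, which make the first cut in fibrillar collagen, were read by 4 probe sets with low values, and none was called (0 of 4). Of all probe sets with both means under 5, 1.14% were called higher and 0.677% lower. Mmp13 (collagenase 3) read 2.93, 3.02 and 2.45 in GFP control and 4.51, 3.51 and 6.24 in TFEB (1.95 ± 0.63, adjusted p = 0.055). The groups did not overlap, but the TFEB arrays spanned 3.51 to 6.24, and the control values lay within or below the 2.54 to 3.09 of the bacterial trp negative control probe sets. Mmp1a and Mmp1b had GFP control means within the same range, 2.71 and 3.01, and Mmp8 lay just above it at 3.58.

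Of the remaining MMPs, Mmp23 rose on 1 probe set and Mmp19 did not reach the fold limit. Mmp23 is a small MMP tethered by its N-terminus and found in reproductive tissue, heart and muscle. Its probe set 1417281_a_at read 5.56, 5.60 and 5.76 against 6.23, 6.51 and 6.53 (0.78 ± 0.11, 1.72-fold, adjusted p = 0.0032). The other, 1417282_at, read 6.20, 6.05 and 6.43 against 6.50, 6.91 and 7.00 and fell just short of the fold limit (0.58 ± 0.16, adjusted p = 0.033). Mmp19, a basement membrane protease, gave 0.40 ± 0.11 (adjusted p = 0.033) on 1421977_at, at values of 3.24 to 3.87, and 0.06 on 1421976_at.

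Of the genes above, 9 belong to a single cluster on mouse chromosome 9, where 10 Mmp genes lie next to each other in the RefSeq annotation of GRCm38.p6. In genome order these are Mmp13, Mmp12, Mmp1b, Mmp3, Mmp1a, Mmp10, Mmp8, Mmp27, Mmp20 and Mmp7, of which only Mmp27 had no probe set. The genes are known to respond to AP-1 factors, the dimers of Fos and Jun. Promoter windows of 250 bases before to 50 bases after the start were searched on both strands for short motifs. These were TGANTCA, an AP-1-like motif in which N is any base, and CACGTG, the E-box core of the TFEB site. TGANTCA was present in 8 of the 9 cluster genes on the array, where a gene was counted when any of its windows held it. It was present in 7.81% of the 32851 windows of the table, which is a share of windows and not of genes. The match read TGAATCA in Mmp20, TGACTCA in Mmp13 and TGAGTCA in the others. The stretches of 100 bases before the start (GRCm38.p6, plus strand) are shown for 4 cluster genes with the motif and for Mmp8, which lacked it, so that the shared letters can be set beside each gene's values. For Mmp12 the second of its windows is shown. Capitals mark TGANTCA.

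Mmp13, chr9:7272414-7272513: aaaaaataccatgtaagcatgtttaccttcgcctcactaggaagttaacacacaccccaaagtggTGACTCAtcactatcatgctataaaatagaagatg
Mmp12, chr9:7347274-7347373: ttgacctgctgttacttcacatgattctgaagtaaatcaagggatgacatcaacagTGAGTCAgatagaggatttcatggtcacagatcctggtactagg
Mmp3, chr9:7445722-7445821: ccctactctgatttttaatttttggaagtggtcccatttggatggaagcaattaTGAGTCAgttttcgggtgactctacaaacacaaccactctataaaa
Mmp10, chr9:7502242-7502341: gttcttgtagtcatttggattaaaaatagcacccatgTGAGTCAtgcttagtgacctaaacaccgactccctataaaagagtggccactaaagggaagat
Mmp8, chr9:7558329-7558428: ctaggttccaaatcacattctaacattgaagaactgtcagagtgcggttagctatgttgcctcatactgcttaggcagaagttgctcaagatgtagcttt

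The motif began 35 bases before the start in Mmp13, 44 in Mmp12, 46 in Mmp3 and 63 in Mmp10. Of the 8 genes that carry it, Mmp3 alone was called, at 1.73. Mmp13 (1.95) and Mmp12 (0.64) had positive differences that missed the limit on p, while Mmp10 gave -0.14 ± 0.072 and Mmp7 -0.05 ± 0.071. Mmp1a, Mmp1b and Mmp20 carried the motif as well and had no call, the first 2 with control means within the negative controls. A match in these windows is a description of the letters and not of a bound site.

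**Figure D3:**
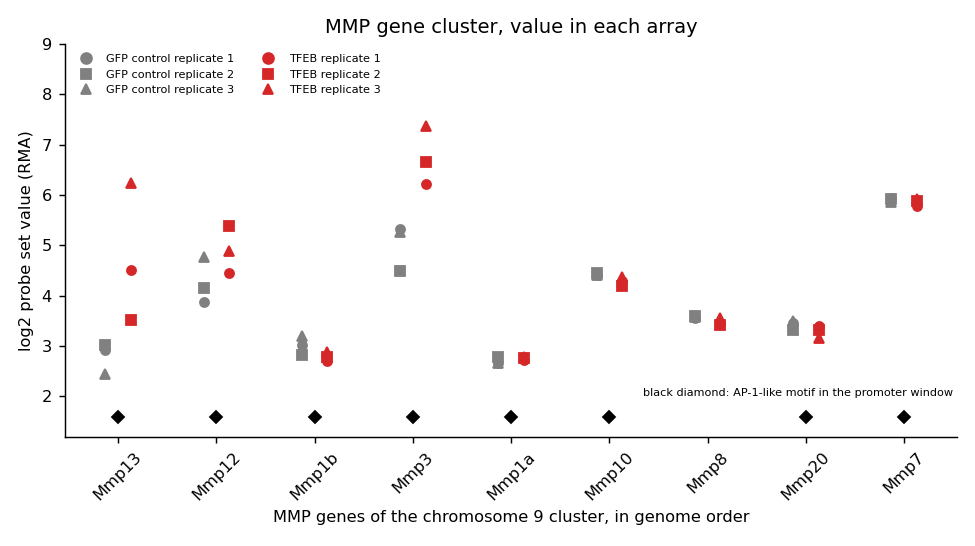
Log2 value in each array (y axis) of the 9 cluster genes with a probe set, in genome order (x axis). Grey symbols are GFP control and red symbols TFEB arrays, and black diamonds mark genes with TGANTCA in the promoter window. Only Mmp3 was called, Mmp13 is spread from 3.51 to 6.24 among the TFEB arrays, and in Mmp12 (0.64) the groups overlap.

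The inhibitors split by gene. Timp1, Timp3 and Timp4 were called, the first higher and the others lower, and Timp2 was not called on any of 6 probe sets. Timp1 is the TIMP most readily induced in inflamed or injured tissue. It read 5.41, 7.47 and 5.20 in GFP control and 7.82, 8.42 and 8.86 in TFEB (2.34 ± 0.61, 5.06-fold, adjusted p = 0.027). Of all members this was the largest difference and also the one with the widest control spread (SD 1.3), since GFP control replicate 2 lay nearly at the level of the lowest TFEB array. Without that array the difference was 3.06 ± 0.27 (adjusted p = 0.00039). Leaving out GFP control replicate 1 or 3, or TFEB replicate 2 or 3, instead took the adjusted p above the threshold (0.0798, 0.0852, 0.076 and 0.0955, at differences of 1.93 to 2.32).

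Timp3 is bound to the matrix and inhibits ADAM17 and the proteoglycan-cleaving ADAMTS enzymes besides MMPs. All 4 of its probe sets were lower in every TFEB array than in any GFP control array, and 2 were called. On 1419088_at the values were 8.04, 7.57 and 8.03 in GFP control and 6.46, 6.75 and 6.18 in TFEB, 2.67-fold lower (-1.42 ± 0.19, adjusted p = 0.0027). On 1449334_at they were 8.73, 8.36 and 8.80 against 7.77, 8.03 and 7.61 (-0.83 ± 0.15, adjusted p = 0.0086). The brightest probe sets, 1419089_at and 1449335_at, passed the limit on p but not on fold, with -0.48 ± 0.12 (adjusted p = 0.022) and -0.57 ± 0.12 (adjusted p = 0.015). Thus the size of the Timp3 difference ran from -0.48 to -1.42 by probe set. Without GFP control replicate 2 all 4 were called lower, at -0.60 to -1.57.

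Timp4, the TIMP of heart and muscle, read 8.12, 7.74 and 8.25 against 7.18, 7.61 and 7.01 on 1450974_at (-0.77 ± 0.19, 1.71-fold lower, adjusted p = 0.023). On 1423405_at it read 8.34, 7.81 and 8.42 against 7.78, 7.88 and 7.49, where GFP control replicate 2 and TFEB replicate 2 crossed (-0.48 ± 0.18, adjusted p = 0.090). The Timp4 call is therefore close to the limit. Without GFP control replicate 2 both probe sets were called, at -0.92 and -0.67, whereas leaving out GFP control replicate 1 or 3, or TFEB replicate 1 or 3, left neither called (adjusted p of 0.0691 to 0.0785 on 1450974_at).

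Timp2, which binds Mmp14 and Mmp2, was the brightest member gene. Its probe sets differed in sign. The brightest gave 0.58 ± 0.12 (1454677_at, adjusted p = 0.012), 0.44 ± 0.11 (1460287_at, adjusted p = 0.026) and 0.42 ± 0.12 (1433662_s_at, adjusted p = 0.039). On 1454677_at the arrays read 10.08, 9.82 and 10.01 against 10.36, 10.57 and 10.72, just short of the fold limit. The other probe sets gave 0.03 (1450040_at), -0.50 (1420924_at) and -0.36 (1437081_at), with adjusted p of 0.89, 0.14 and 0.058. Of these, 1437081_at was dim, at values of 3.47 to 4.02. No single direction can be given over all Timp2 probe sets, though only positive differences passed the limit on p.

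**Figure D4:**
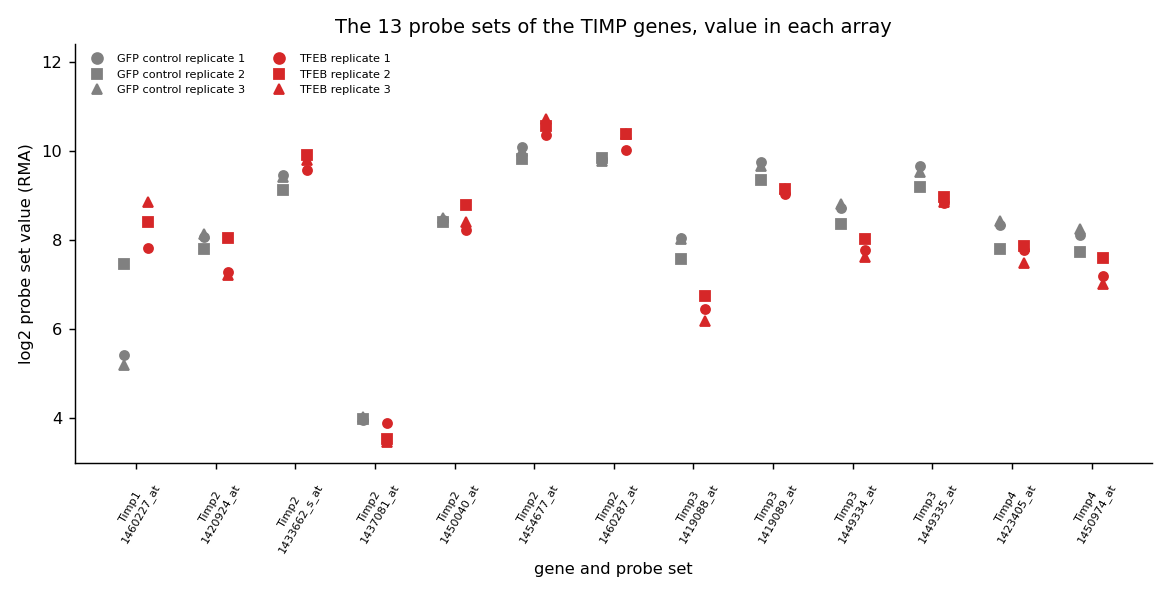
Log2 value in each array for the 13 TIMP probe sets, grouped by gene, with GFP control in grey and TFEB in red. Timp1 is higher and the 4 Timp3 probe sets lower in every TFEB array, while the Timp2 probe sets point both ways. GFP control replicate 2 is the highest control array in Timp1 (7.47) and the lowest in each Timp3 and Timp4 probe set.

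Among the ADAM proteases, Adam19 and Adam12, both known from muscle, heart and mesenchymal development, rose. Adam19 (meltrin beta) read 6.14, 7.28 and 6.08 in GFP control and 8.31, 8.19 and 8.46 in TFEB on 1418402_at (1.82 ± 0.31, 3.53-fold, adjusted p = 0.0066). On 1418403_at it read 4.67, 5.21 and 5.07 against 6.04, 5.93 and 5.80 (0.94 ± 0.15, 1.92-fold, adjusted p = 0.0051). GFP control replicate 2 was the highest control array on both, and without it the differences were 2.21 and 1.06. Adam12 (meltrin alpha), a marker of activated fibroblasts and regenerating fibres, read 5.29, 5.15 and 4.65 against 5.60, 5.75 and 6.15 on 1421172_at (0.81 ± 0.21, 1.75-fold, adjusted p = 0.025). The call was lost without GFP control replicate 3, TFEB replicate 2 or TFEB replicate 3 (adjusted p of 0.0614, 0.0603 and 0.0789). Its dim probe set 1421171_at gave 0.57 ± 0.14 (adjusted p = 0.024) at values of 2.87 to 3.84.

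The 2 main sheddases, Adam10 and Adam17, were not called. Adam10, which releases the outer domains of Notch and cadherins, read 8.49, 8.66 and 8.45 against 9.06, 9.05 and 8.98 on its brightest probe set, 1428103_at, where the groups were apart but 1.41-fold different (0.50 ± 0.081, adjusted p = 0.0055). Its other probe sets, 1450104_at and 1450105_at, had adjusted p of 0.12 and 0.99. Adam17, the protease that releases TNF, gave 0.55 ± 0.17 (1421858_at, adjusted p = 0.047), -0.31 ± 0.16 (1421857_at) and 0.18 ± 0.14 (1421859_at), so its probe sets differed in sign. Without GFP control replicate 2, which was the highest control array on 1421858_at, that probe set was called higher at 0.74 (adjusted p = 0.0015). Adam9 was the brightest ADAM and read 9.65, 9.54 and 9.52 against 9.38, 9.44 and 9.42 (-0.16 ± 0.070, adjusted p = 0.13). Adam8, a protease of leukocytes, read 5.40, 6.55 and 5.21 against 6.00, 6.48 and 6.74 (0.69 ± 0.37, adjusted p = 0.19). Its difference turned on GFP control replicate 2, and without that array it was called at 1.11 ± 0.20 (adjusted p = 0.0057). Adam15, Adam28 and Adam33 were not called on any probe set.

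None of the 16 ADAM genes that lack a working protease site or belong to the germ line was called (0 of 17 probe sets). Calls were rare among dim probe sets in general, at 1.14% higher and 0.677% lower where both means were under 5. Their median log2 fold change was -0.14 and their range -0.26 to 0.09. The smallest p was that of Adam2, a sperm surface protein, which read 3.62, 3.58 and 3.48 against 3.27, 3.29 and 3.40 (-0.24 ± 0.076, adjusted p = 0.0496). Adam4, the brightest of the group, gave -0.12 ± 0.075. The GFP control means of the group ran from 2.55 to 6.01, with a median of 3.79.

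The E-box core CACGTG was found in 3 of the 36 promoter windows of the member genes, and in 7.15% of all windows. The 3 belonged to Adam10, Adam19 and Mmp7, of the 31 member genes that have a window. The longer form TCACGTG was found in 1 of the 36 member windows, that of Adam10, and in 3.77% of all windows. The 150 bases before the start are shown for the 2 ADAM genes (GRCm38.p6, plus strand; for Adam19, the first of its 3 windows), with the motif in capitals.

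Adam10, chr9:70678832-70678981: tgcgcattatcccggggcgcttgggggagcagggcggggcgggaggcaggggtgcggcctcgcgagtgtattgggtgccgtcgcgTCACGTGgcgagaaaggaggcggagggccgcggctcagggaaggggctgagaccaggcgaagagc
Adam19, chr11:46054352-46054501: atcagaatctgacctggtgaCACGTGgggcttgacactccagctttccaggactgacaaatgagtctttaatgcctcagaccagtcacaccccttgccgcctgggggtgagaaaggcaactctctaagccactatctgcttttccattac

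The motif began 65 bases before the start in Adam10, which was not called, and 130 in Adam19, which was called higher. Of the 13 genes called higher, 6 had a window, and of these Adam19 alone held CACGTG. Both genes called lower had a window and held neither motif, while 2 of the 23 genes with a window and no call held CACGTG. Outside the Mmp cluster, TGANTCA was found in Adam1b, in Adam25 (as TGAATCA) and in another window of Adam19. By call, TGANTCA was held by 2 of the 6 genes called higher and 9 of the 23 with no call.

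The ADAMTS enzymes were called higher at 4 of 9 probe sets (44.4%) and lower at 0, beside 7.51% and 6.11% of all probe sets. All 4 were proteoglycanases, a role that holds 7 of the 9 probe sets. Adamts4 and Adamts5 are the main aggrecanases. Adamts5 was the brightest ADAMTS and read 8.18, 8.05 and 8.36 in GFP control and 8.81, 8.98 and 8.93 in TFEB on 1422561_at (0.71 ± 0.099, 1.63-fold, adjusted p = 0.0034). Its second probe set, 1450658_at, read 7.39, 7.24 and 7.29 against 7.78, 7.77 and 7.86 and was under the fold limit (0.50 ± 0.073, adjusted p = 0.0039). Both probe sets of Adamts5 were tight among replicates and apart between groups.

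Adamts4 rose 1.88-fold on both of its probe sets. On 1452595_at it read 4.58, 4.69 and 4.77 against 5.44, 5.55 and 5.79 (0.91 ± 0.11, adjusted p = 0.0020), and on 1455965_at 3.81, 3.95 and 3.86 against 4.70, 4.74 and 4.92 (0.91 ± 0.087, adjusted p = 0.0011). Both lay low on the scale, within the range of the germ line ADAMs. Adamts15, a versican-cleaving enzyme, read 5.12, 4.65 and 4.89 against 6.03, 6.21 and 6.49 (1.36 ± 0.16, 2.56-fold, adjusted p = 0.0019). It had the largest difference among the ADAMTS genes. Adamts1 was not called (-0.18 ± 0.10), nor was Adamts8. Outside this class, Adamts7 gave 0.47 ± 0.090 (adjusted p = 0.010) and Adamts10, which binds fibrillin microfibrils, 0.33 ± 0.11 (adjusted p = 0.054), both under the fold limit.

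The lysyl oxidases Lox and Loxl1 rose. Lox is the founding member of the family and crosslinks fibrillar collagen. On 1416121_at it read 6.81, 6.47 and 6.74 in GFP control and 8.14, 8.22 and 8.66 in TFEB (1.67 ± 0.16, 3.18-fold, adjusted p = 0.0011). On 1448228_at it read 6.77, 6.30 and 6.81 against 7.33, 7.69 and 7.69 (0.94 ± 0.17, 1.92-fold, adjusted p = 0.0075). The third Lox probe set, 1437903_at, lay within the negative controls in GFP control, with a mean of 2.96, and was not called (0.14 ± 0.093). Loxl1, which acts on elastic fibres, had the tightest control arrays of the called members, with 7.73, 7.77 and 7.76 against 8.85, 9.19 and 9.29 (1.36 ± 0.12, 2.56-fold, adjusted p = 0.00097). Loxl3 gave 0.46 (adjusted p = 0.062) and was called at 0.64 without GFP control replicate 2, and Loxl4 was not called on either probe set.

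Where a gene had several probe sets, their calls were often unequal. Of the 21 such genes, 4 were called on all probe sets (Mmp2, Mmp14, Adam19 and Adamts4) and 6 on some (Mmp23, Timp3, Timp4, Adam12, Adamts5 and Lox). By level, 34 probe sets had both group means under 5, and 1 of them (2.94%) was called higher (Adamts4, 1455965_at). Of the 56 brighter probe sets, 17 (30.4%) were called higher and 3 (5.36%) lower. Over all probe sets, the shares called higher and lower were 1.14% and 0.677% where both means were under 5, and 9.92% and 8.16% among the brighter ones.

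Genes that work beside the members in matrix turnover were read from a list of other proteases, their activators and inhibitors, and collagen-modifying enzymes. Of the 46 with a probe set, 13 (28.3%) were called higher and 0 lower, beside 8.62% and 4.9% of all genes at their brightest probe set. The list was chosen with earlier results of these data known, so these shares describe the list and do not test it. Plat, the tissue plasminogen activator, read 6.70, 6.66 and 6.62 in GFP control and 7.81, 8.0 and 7.94 in TFEB (1.26 ± 0.077, adjusted p = 0.00042). Several of the others modify collagen. Crtap and P3h1, partners in the prolyl 3-hydroxylase complex, gave 1.12 and 0.75, and Plod1, a lysyl hydroxylase whose product the lysyl oxidases use, gave 0.89 (adjusted p 0.0013 to 0.0014). Serpinh1, the collagen chaperone of the endoplasmic reticulum, rose by 1.00, and Pcolce, which enhances the trimming of procollagen, by 0.83. Fap, a membrane protease of activated fibroblasts, gave 1.18, and Tgm2, a transglutaminase that links matrix proteins by another chemistry, 1.03. The others called higher were Bmp1, Plod2, Htra3, Lrp1 and Pcsk5. Under the fold limit but past the limit on p were Adamtsl5 (0.48) and Tspan14 (0.56), which were higher, and P4ha1 (-0.54), P4ha2 (-0.33) and Htra1 (-0.44), which were lower. These genes were named after their values were seen. The MMP regulators Reck, Bsg and Furin were not called.

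Levels of several marker lists differed between the groups as well, each gene read by its brightest probe set, for which 8.62% of all genes were called higher. Of 10 fibroblast markers, 5 were called higher and 0 lower (Lum, Col1a1, Col3a1, Pi16 and Cd34), and the mean of the list ran from 8.76 to 8.80 in GFP control and from 9.39 to 9.75 in TFEB. Of 8 endothelial markers 4 were called higher, with list means of 7.14 to 7.43 and 7.96 to 8.16. Of 12 macrophage markers 1 (8.33%) was called higher, Cd68, which is also a lysosomal protein, and the list means of 6.82 to 8.81 and 8.09 to 8.95 overlapped. The 8.81 was that of GFP control replicate 2. The median log2 fold change of the macrophage list was 1.24, beside 0.739 for the fibroblast and 0.705 for the endothelial list. Its median SE was 0.58, beside 0.146 and 0.121, so few calls here do not mean small differences. Of 7 neutrophil markers S100a8 and S100a9 were called higher, while the median of the list was -0.07 and Camp gave -0.37 (adjusted p = 0.016). The 5 satellite cell markers had list means of 5.65 to 5.80 in GFP control and 5.95 to 6.02 in TFEB, with Myf5 called higher. The 3 adipocyte markers measured (Adipoq, Lep and Retn) had list means of 6.24 to 7.22 in GFP control and 5.66 to 6.15 in TFEB, with no call. The 12 fast fibre markers had list means of 13.99 to 14.03 in all arrays, high on the scale, with no call. The marker lists, too, were chosen with earlier results of these data known. In whole muscle, more cells of a type and more RNA per cell cannot be told apart. The part of these cell types in the member genes' differences was not tested.

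**Figure D5:**
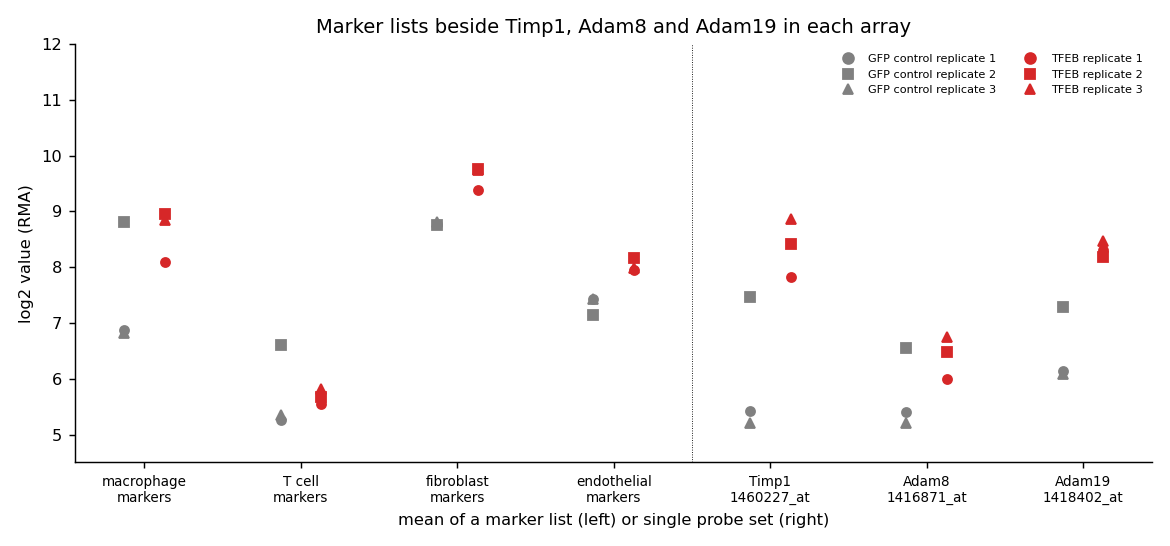
Mean log2 value of 4 marker lists (left) and log2 value of 3 member probe sets (right) in each array (y axis), with GFP control in grey and TFEB in red. GFP control replicate 2 (square) stands above the other control arrays in the macrophage and T cell lists and in Timp1, Adam8 and Adam19, and lies among them or lower in the fibroblast and endothelial lists.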

How the data were processed

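The authors deposited log2 expression values, 1 for each probe set on each array. The submitters' processing notes name affy and RMA, without versions. RMA corrects background, equalises the arrays by quantiles and summarises the probes of a set. That the scale is log2 follows from the range of values. Quantile normalization would partly remove a shift shared by most transcripts, and the 3 arrays per group limit the precision. Of 22690 probe sets, 64 controls were left out. GEO's platform annotation gave 1 symbol to 20380 of the 22626 tested, several to 691 and none to 1555, and 2 probe sets with several symbols were left out of the members.

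The groups were compared with limma 3.58.1 in R 4.3.3 (lmFit and eBayes, two-sided, Benjamini-Hochberg over all 22626 probe sets), with the thresholds of the study's gene list. The fit was tested on simulated data. Promoters came from RefSeq and were searched in Python 3.11.15. A search of protein motifs was not run.

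The members, roles and lists were chosen with earlier results of these data known. Named are members with an adjusted p under 0.05, the brightest and the smallest-p gene of each role, and up to 8 called partner genes in each direction. Mmp7, Mmp9, Mmp10, Mmp12, Adam8, Adamts1 and Loxl3 were added after their values were seen. Alternatives changed the scaling, a filter on dim probe sets, array weights, the variance trend, the test, the fold limit, the replicate block, the value per gene and the arrays used.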

Additional observations from a re-analysis of the deposited data

How the results depend on the processing

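Of the 21 called member probe sets, 17 kept their call under every alternative that changed the fit, scaling or arrays, and 0 changed sign. Mmp3, Timp1, Timp4 (1450974_at) and Adam12 (1421172_at) lost it under Student's test, and the last 2 also with the replicate number as a block. The other losses came from leaving out single arrays, as given with each gene. Mmp13 passed when the arrays were shifted to equal medians (adjusted p = 0.0498), after repeated quantile normalization (0.0492), with array weights (0.0402) and without TFEB replicate 2 (0.0212). The deviations of same-numbered arrays from their group means had correlations of 0.422, 0.166 and -0.233. Those of arrays with unlike numbers ran from -0.436 to 0.327. With 3 arrays per group, these values cannot decide whether the numbers pair the samples. With the replicate block, 17 member probe sets were higher and 2 lower, and 12 partner genes were higher.

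The 18 member probe sets called higher became 10 with the filter on dim probe sets (31 of the 90 tested), 28 with no fold limit and 10 at 2-fold, and 16 to 21 with 1 array left out. The 3 called lower became 5 with array weights, 7 with no fold limit and 1 at 2-fold, and 2 to 6 with 1 array left out (6 without GFP control replicate 2, 5 without TFEB replicate 2). By brightest probe set, the 12 genes higher became 7 with the dim filter, and the 0 lower became 1 with array weights, 2 with no fold limit, 2 with the mean of a gene's probe sets, and 0 to 2 with 1 array left out. The 13 partner genes higher became 5 at 2-fold, and the 0 lower became 1 with equal medians, array weights or the mean of probe sets, 3 with no fold limit, and 0 to 1 with 1 array left out. With 1 array left out, 10 to 15 member genes and 11 to 14 partner genes were higher.

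Sign changes were seen only in probe sets that were not called. With equal medians, Mmp19 (1421976_at) became -0.012 and Timp2 (1450040_at) -0.039. With 1 array left out, Mmp19 ran from -0.066 to 0.22, Timp2 (1450040_at) from -0.13 to 0.16 and Adam10 (1450105_at) from -0.12 to 0.16. Adam10 (1450105_at) was also 0.031 with fast fibre scaling and 0.030 with array weights. The mean of a gene's probe sets gave 0.10 for Timp2, 0.10 for Adam10 and 0.14 for Adam17. The causes were not tested.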
